A study of Mus musculus with 3 samples.

Results

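The genes described here encode the mitochondrial respiratory chain in the nucleus of the mouse. Members were the mm9 protein-coding genes with more than 1 exon whose symbols begin with Nduf, Sdha to Sdhd, Uqcr, Cox4 to Cox8 or Atp5, which gave 92 gene records under 91 symbols (*Ndufb8* has 2 records) of 22367 protein-coding genes. Of these, 40 were assigned to complex I, 5 to complex II, 8 to complex III, 20 to complex IV and 16 to complex V, assembly factors included. The other 3 records carry such a symbol but were not assigned to a complex here (*Cox4nb*, *Atp5sl* and the second *Ndufb8* record). ChIP-seq reads came from megakaryocytes (MK), the large blood cells that release platelets. Wild-type CD1 fetal liver cells were cultured for 5 days, labelled Mature Megakaryocytes, with embryonic day 15 in the labels and another day in the methods. There was 1 library with FLI1 antibody, 1 with RUNX1 antibody and 1 of input DNA, and each precipitated library pooled at least 3 precipitates. The spread between precipitates is therefore unseen, no test was possible, and every interval below covers counting error only.

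The respiratory chain passes electrons from NADH (complex I) and succinate (complex II) through complex III and cytochrome c to oxygen at complex IV, and ATP synthase (complex V) uses the resulting proton gradient to make ATP. Most of its subunits are encoded in the nucleus and are made in nearly every cell, whereas a few complex IV subunits have forms restricted to muscle, lung or testis. Promoters of these genes are known for binding sites of NRF-1, of YY1 and of the ETS protein GABP, also called NRF-2. FLI1 is another ETS protein, with a role in MK maturation, and the family shares a GGAA core, often within CCGGAA. RUNX1 is a factor of blood cells that reads TGTGGT or TGCGGT.

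The sites that the results turn on are shown first. They are the CCGGAA site nearest to the FLI1 maximum at the gene with the highest FLI1/input ratio in complexes II to V, the nearest GGAA core at *Ndufb5*, which led complex I and held no CCGGAA near its start, and the site of *Ndufc2*, the complex member with the lowest ratio among those with CCGGAA. Sequences run 5′ to 3′ on the strand of the gene in mm9, and capitals mark CCGGAA or its reverse complement, or, for *Ndufb5*, the reverse complement of the core. By the annotation the sites of *Ndufb5* (which *Mrpl47* overlaps), *Sdhaf2* and *Atp5j* lie in untranslated parts of these genes. The runs of *Uqcrh* and *Ndufc2* span the start, with the match of *Uqcrh* just upstream of it and that of *Ndufc2* across it. The *Cox4i1* site lies upstream of its start, within an intron of the overlapping gene record *Gm20388*.
Ndufb5, chr3:32635968-32635997, plus strand: tagccctccccacTTCCttccgtggccggt
Sdhaf2, chr19:10599665-10599694, minus strand: ctcggttgcgccTTCCGGcttggggtccac
Uqcrh, chr4:115747667-115747696, minus strand: agtatgccgcacTTCCGGccaggtcgccgg
Cox4i1, chr8:123192158-123192187, plus strand: tccgtcttggtcTTCCGGttgcgggccccg
Atp5j, chr16:84835093-84835122, minus strand: gcggagccagggCCGGAAgtagaacggtgg
Ndufc2, chr7:104548499-104548528, plus strand: ccacttagaagcCCGGAAcctcgcgtgcag

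Longer promoter runs set a pair of strongly occupied starts beside the least occupied one. The *Cox4i1* run covers the space between the starts of *Cox4i1* and *Cox4nb*, which lie 178 bp apart on opposite strands, and extends past both. It holds CCGGAA on both strands, with a match inside each gene and another between the starts. The *Uqcrh* run holds a single match next to the start. The *Cox8b* run, from the gene with the lowest FLI1/input ratio of all members, holds none, and no CCGGAA lay within 250 bp of its start on either side.
Cox4i1 promoter, chr8:123191983-123192202, plus strand: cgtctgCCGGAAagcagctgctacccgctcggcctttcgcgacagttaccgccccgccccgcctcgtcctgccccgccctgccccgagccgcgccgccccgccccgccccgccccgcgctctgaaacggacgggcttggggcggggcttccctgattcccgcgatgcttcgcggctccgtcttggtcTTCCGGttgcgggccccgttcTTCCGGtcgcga
Uqcrh promoter, chr4:115747647-115747816, minus strand: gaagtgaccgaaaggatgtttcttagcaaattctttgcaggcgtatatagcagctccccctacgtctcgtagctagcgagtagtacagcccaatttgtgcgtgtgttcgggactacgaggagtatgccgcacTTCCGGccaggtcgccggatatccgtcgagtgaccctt
Cox8b promoter, chr7:148086316-148086485, minus strand: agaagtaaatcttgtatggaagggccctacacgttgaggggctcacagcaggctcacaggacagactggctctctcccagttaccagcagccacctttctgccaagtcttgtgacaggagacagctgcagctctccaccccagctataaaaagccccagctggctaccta

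The files held 62955089 FLI1, 3975705 RUNX1 and 22477167 input reads, of which 62946422, 3973856 and 21745220 were used. In 2 kb bins over the genome the median count was 51 FLI1, 3 RUNX1 and 17 input reads, so RUNX1 at a single gene rested on few reads. The RUNX1 file holds far fewer reads, and the FLI1 file somewhat fewer, than the supplement of the study lists for these libraries, and all values below rest on the deposited reads. The study's RNA measurements were not analysed here, and FLI1 reads were counted at start sites of marker genes. Cells without FLI1 would add no FLI1 signal there, so these counts cannot show whether such cells were present. Of 10 megakaryocyte markers, 9 stood at 2-fold or more over input (*Itga2b* 8.52, *Pf4* 7.11), and *Ppbp* did not, at 1.01. None of 4 hepatocyte, 4 erythroid, or 4 B and T cell markers did, and 1 of 4 granulocyte markers did (*Mpo* 4.51). Of all protein-coding genes 35.0% did.

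FLI1 reads gathered at most respiratory chain starts. Within 1 kb of the transcription start site (TSS), members held a median of 151 FLI1, 6 RUNX1 and 21 input reads, against 70, 4 and 19 for all protein-coding genes. A gene was called occupied when its depth-scaled ChIP/input ratio reached 2, with 1 read of the shallower library added to avoid division by 0. For FLI1 this held for 63 of 92 members (68.5%), beside 35.0% of all protein-coding genes and 38.5% of those with more than 1 exon. The median FLI1/input ratio was 2.45 for members, with quartiles of 1.77 and 4.18, and 1.38 for all genes. The exact interval of a ratio lay wholly above 1 for 77 members (83.7%; 41.8% of all genes) and wholly below 1 for 2. Extending the window to 2 kb on each side left 39 members called, with 24.0% of all genes, and asking for 3-fold left 37, with 20.4%.

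**Figure D1:**
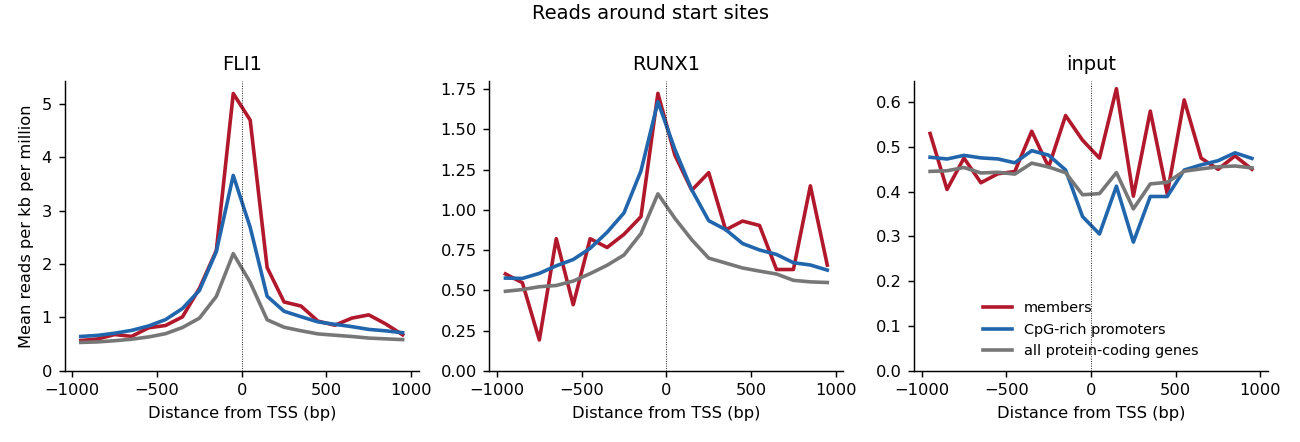
Mean RPKM (reads per kb of window and per unit of library depth) in 100 bp steps from 1000 bp before to 1000 bp after the TSS (x axis), for FLI1, RUNX1 and input, with lines for the 92 members, the 10654 CpG-rich promoters and all 22367 protein-coding genes. FLI1 at members was highest just upstream of the TSS at 5.19, against 3.66 at CpG-rich promoters and 2.19 at all genes, while RUNX1 at members (1.72) and at CpG-rich promoters (1.67) had like heights.

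CpG-rich promoters were more frequent among the members, and this class by itself carried more FLI1. A promoter was CpG-rich when the 500 bp around the TSS had at least 50% GC and an observed over expected CpG of at least 0.6, which held for 72 members (78.3%) and 47.6% of all genes. Among CpG-rich promoters of all genes, 60.3% were called for FLI1, with a median ratio of 2.39. The 72 CpG-rich members had 56 called (77.8%) and a median of 2.95. The 20 other members had 7 called (35.0%) and a median of 1.57, beside 1409 of 11713 called and 0.995 for all genes without a CpG-rich promoter. The median over all members was thus close to that of CpG-rich promoters as a class, and the CpG-rich members lay above it. Other housekeeping sets counted the same way had higher values, with 83.1% called and a median of 3.61 for 89 cytosolic ribosomal protein genes, 57 called and 3.06 for 76 mitochondrial ribosomal protein genes, and 85.4% and 3.05 for 41 proteasome genes. No test was made of these differences.

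In complex I, the NADH dehydrogenase, 28 of 40 members (70.0%) were called, with a median ratio of 2.53, beside 35.0% of all genes. CpG-rich promoters as a class, to which 36 of the 40 belong, had 60.3% and 2.39. *Ndufb5*, an accessory subunit, led with 387 FLI1, 7 RUNX1 and 16 input reads and a ratio of 7.92 (95% interval 5.08 to 14.8). *Ndufa1*, an accessory subunit on the X chromosome, had 127 FLI1, 4 RUNX1 and 6 input reads (6.41, 3.27 to 20.3), so its ratio rested on the lowest input count of all members. It was 18.6 with 500 bp on each side and 1.76, below the threshold, with 2 kb. *Ndufb3* had 327, 9 and 17 (6.33, 4.09 to 11.6). The intervals of these leading genes overlapped, and their order is not resolved. Of the 7 catalytic core subunits, which carry the flavin and iron-sulfur centres, 6 were called with a median of 4.13, among them *Ndufv1* (5.82), *Ndufs8* (4.71) and *Ndufs1* (4.51), and *Ndufv2* stood at 1.83. Of 29 accessory subunits 18 (62.1%) were called with a median of 2.33, near the values of CpG-rich promoters as a class. CCGGAA lay within 250 bp of the start at 4 of the 7 core and 9 of the 29 accessory genes, and its part in their difference was not tested. At the low end, *Ndufc1* (94 FLI1, 8 RUNX1 and 28 input reads, 1.15) and *Ndufa11* (113, 7 and 33, 1.18) had intervals that included 1, although both promoters were CpG-rich. The 4 assembly factors *Ndufaf1* to *Ndufaf4*, which build the complex without staying in it, ranged from 2.36 (*Ndufaf4*) to 4.99 (*Ndufaf1*).

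**Figure D2:**
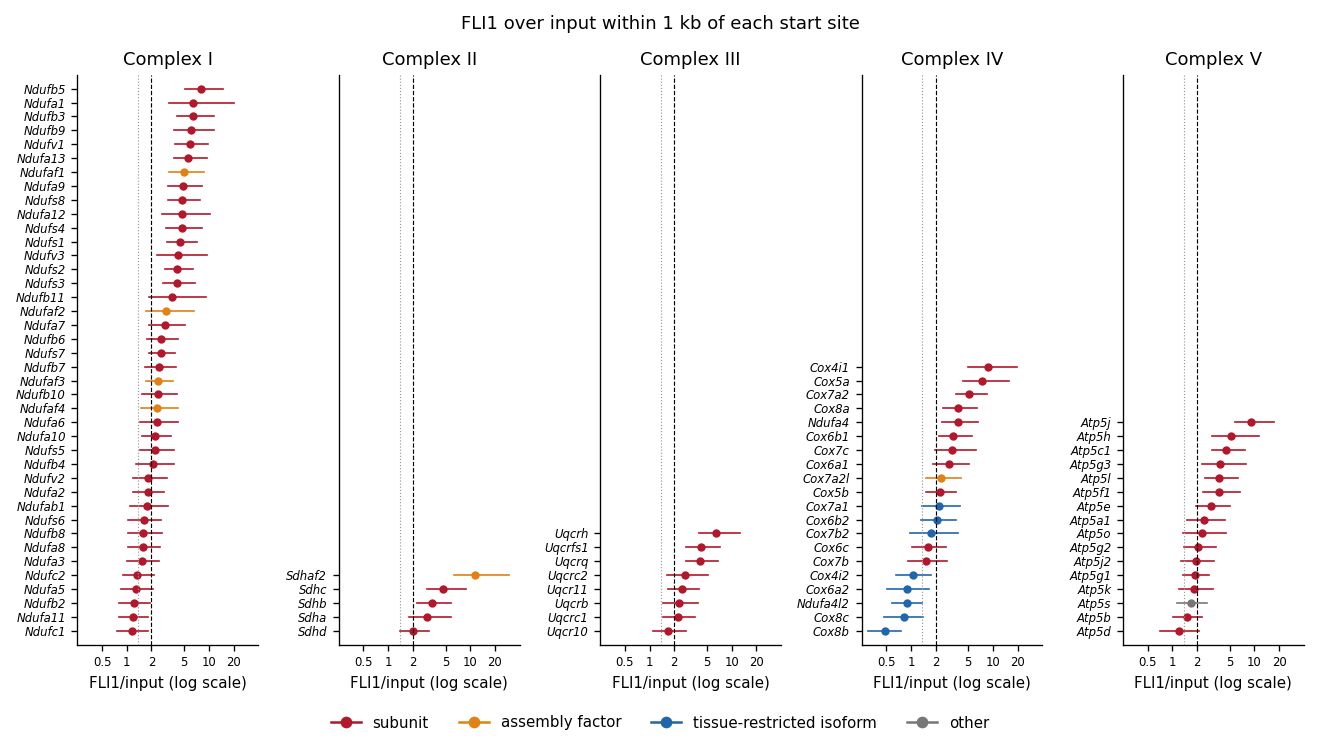
FLI1/input within 1 kb of the TSS (x axis, log scale) of each gene of complexes I to V, ranked within its complex, with points for the ratio, bars for the exact 95% counting interval and colours for subunits, assembly factors and tissue-restricted isoforms. The dashed line marks 2-fold and the dotted line the median of all genes (1.38), with 5 of 5 complex II genes at or past 2-fold and 5 of the 8 tissue-restricted complex IV isoforms (*Cox4i2*, *Cox6a2*, *Ndufa4l2*, *Cox8c* and *Cox8b*) at the bottom of their panel.

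All 5 genes of complex II, succinate dehydrogenase, were called and all held CCGGAA. All 5 promoters were CpG-rich, a class with 60.3% called, beside 35.0% of all genes. *Sdhaf2*, whose product adds flavin to SDHA, had the highest ratio of all members within 1 kb, with 295 FLI1, 4 RUNX1 and 8 input reads (11.4, 6.38 to 29.8). With 500 bp on each side *Ndufa1* stood above it (18.6 and 13.2), and with 2 kb *Ndufb5* did (5.74 and 4.29). *Sdhc*, a membrane anchor, had 228, 6 and 16 (4.69). *Sdhb*, the iron-sulfur subunit, had 217, 6 and 21 (3.45). *Sdha* (2.94) and *Sdhd* (2.00, with an interval of 1.38 to 3.11) were lowest, and *Sdhd* was the member closest to the threshold from above. It fell below 2 without the read shift (1.88), with repeated input positions kept (1.95) and with 5 reads added in place of 1 (1.89). It also did with 2 kb on each side (1.69) and with FLI1 thinned, in a single random draw, to the depth of the RUNX1 library (1.39). Just below *Sdhd* stood *Atp5j2*, at 1.96.

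In complex III, cytochrome c reductase, 7 of 8 genes were called with a median of 2.60, beside 35.0% of all genes. All 8 promoters were CpG-rich, a class with 60.3% called and a median of 2.39. *Uqcrh*, the hinge subunit, had 276 FLI1, 2 RUNX1 and 14 input reads (6.42, 3.99 to 12.6). *Uqcrfs1*, the Rieske iron-sulfur protein, had 252, 9 and 20 (4.19, 2.76 to 7.25), and *Uqcrq* had 285, 14 and 23 (4.14, 2.80 to 6.86). The core proteins *Uqcrc1* (2.20) and *Uqcrc2* (2.70) stood lower, and *Uqcr10* lay below the threshold at 1.68. *Uqcrc1* fell below 2 with 2 kb on each side (1.97) and with thinned FLI1 (1.11). With thinned FLI1, 3 of the 8 remained past 2-fold, beside 31.3% of all genes.

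Complex IV, cytochrome c oxidase, divided along its isoforms. Of 11 ubiquitous subunits 9 were called, with a median of 3.27, and 8 had CpG-rich promoters, a class with 60.3% called and a median of 2.39. *Cox4i1* had 271 FLI1, 13 RUNX1 and 10 input reads (8.60, 5.01 to 19.8). *Cox5a* had 249, 13 and 11 (7.25, 4.29 to 15.9), and *Cox7a2* had 367, 8 and 24 (5.11, 3.50 to 8.35). *Cox7b* (1.51) and *Cox6c* (1.61) were the ubiquitous subunits below 2-fold, and neither promoter was CpG-rich. *Cox7c*, with no CpG-rich promoter and no CCGGAA within 250 bp, was called at 3.19, and *Ndufa4* (3.73) was, like *Cox5a*, CpG-rich without CCGGAA. The 8 tissue-restricted isoforms had a median of 0.985, and 2 were called, *Cox7a1* (2.18) and *Cox6b2* (2.07). None was called with 2 kb on each side, with 5 reads added or at 3-fold. With FLI1 thinned to the RUNX1 depth 1 of them was, beside 31.3% of all genes. None of these 8 promoters was CpG-rich and none held CCGGAA within 250 bp, whereas the ubiquitous subunits varied in both. Isoform class, CpG class and motif thus overlapped in complex IV without coinciding, and the part of each was not tested.

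Within isoform pairs, the difference was read directly from FLI1 counts, which leaves the input out. *Cox8a* had 237 FLI1, 3 RUNX1 and 21 input reads, its muscle form *Cox8b* 48, 2 and 35, and its testis form *Cox8c* 49, 8 and 21. FLI1 reads at *Cox8a* were thus 4.94 times those at *Cox8b* (interval 3.61 to 6.88) and 4.84 times those at *Cox8c* (3.54 to 6.72). *Cox4i1* exceeded *Cox4i2*, known from lung (74 FLI1, 4 RUNX1 and 24 input reads), 3.66 times (2.82 to 4.80). *Cox6a1* (164, 9 and 19) exceeded the muscle form *Cox6a2* (47, 5 and 18) 3.49 times (2.51 to 4.94), and *Cox7a2* exceeded the muscle form *Cox7a1* (117, 1 and 18) 3.14 times (2.54 to 3.90). Smaller differences were seen for *Ndufa4*, now counted as a complex IV subunit, over *Ndufa4l2* at 2.42 times (1.88 to 3.14), and for *Cox6b1* over the testis form *Cox6b2* at 1.67 times (1.33 to 2.09). *Cox7b* and *Cox7b2* were not separated, at 1.25 times (0.889 to 1.77). Over input their order turned, with 80 FLI1, 5 RUNX1 and 18 input reads at *Cox7b* (1.51) and 64, 4 and 12 at *Cox7b2* (1.78). In 7 of the 8 comparisons the interval lay above 1, and in each of these the ubiquitous form had a CpG-rich promoter and the restricted form did not. *Cox7b* and *Cox7b2*, the pair not separated, both lacked a CpG-rich promoter and CCGGAA near the start. The part of CpG class and motif in these differences was not tested.

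**Figure D3:**
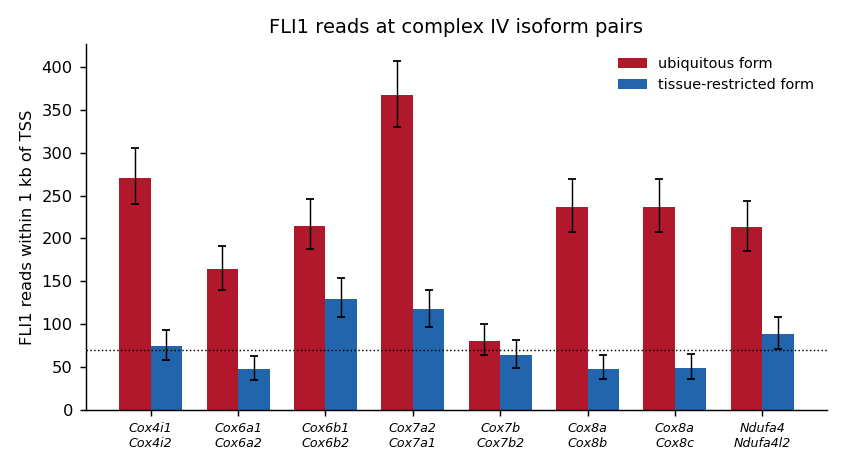
FLI1 reads within 1 kb of the TSS (y axis) for ubiquitous and tissue-restricted forms of complex IV subunits, with exact 95% Poisson intervals as bars and the median of all genes (70) as a dotted line. *Cox8a* is drawn beside each of its 2 restricted forms, and only *Cox7b* and *Cox7b2* have a read ratio whose interval includes 1.

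In complex V, ATP synthase, 10 of 16 genes (62.5%) were called with a median of 2.36. For CpG-rich promoters as a class, to which 12 of the 16 belong, the values were 60.3% and 2.39, so the share of complex V was near that background. *Atp5j* had the most FLI1 reads of all members, 422 with 12 RUNX1 and 15 input reads (9.17, 5.83 to 17.5). Its FLI1 maximum, however, lay 710 bp inside the gene, 10 bp from the start of *Gabpa* on the opposite strand, which encodes the ETS subunit of GABP. The *Atp5j* and *Gabpa* windows overlap, and reads cannot be assigned to either gene. *Atp5h* had 178, 10 and 11 (5.21, 3.05 to 11.4) and *Atp5c1*, the gamma subunit of the rotor, had 286, 12 and 21 (4.54, 3.02 to 7.72). The 3 genes for the c-ring subunit had overlapping intervals. *Atp5g3* had 153 FLI1, 7 RUNX1 and 13 input reads (3.85, 2.31 to 7.81) and *Atp5g2* 153, 15 and 25 (2.07, 1.38 to 3.37). *Atp5g1* had 213, 6 and 38 (1.91, 1.37 to 2.81), so it held the most FLI1 reads of the 3 and the lowest ratio. Overlap does not show that the genes are alike, and their difference was not tested. With thinned FLI1 the ratios of *Atp5g3*, *Atp5g2* and *Atp5g1* were 1.48, 1.44 and 2.01. In this single random draw of FLI1 reads the order turned, *Atp5g3* and *Atp5g2* lost their calls and *Atp5g1* gained a call. Few reads remain after thinning and no other draw was made, so the turn cannot be told apart from sampling of reads. *Atp5g1* had the highest input count of all members. The catalytic beta subunit *Atp5b* (140, 14 and 32) stood at 1.50 and *Atp5d* (66, 6 and 19) at 1.19. At the start of the *Atp5d* transcript with the longest coding sequence the ratio was 2.95, which is past the threshold.

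Among members called for FLI1, the 200 bp window with most FLI1 reads was centred within 250 bp of the TSS in 59 of 63 (93.7%), and within 100 bp in 49. Of all genes called, 70.2% had it within 250 bp, and 74.1% of those with CpG-rich promoters. Sets more like the members had high shares too. These were 90.5% of called cytosolic ribosomal, 82.5% of mitochondrial ribosomal and 85.7% of proteasome genes. Of called CpG-rich promoters with CCGGAA, 87.5% had it there. The 4 exceptions among the members were *Atp5j*, *Atp5f1*, *Ndufa13* and *Ndufb11*. The *Atp5f1* maximum, at +720 bp, lay 10 bp from the start of *Wdr77*, a case like that of *Atp5j* and *Gabpa*. The *Ndufa13* maximum was at +860 bp with 191 FLI1, 1 RUNX1 and 3 input reads in 200 bp, 486 bp from the nearest other start (*Tssk6*). The *Ndufb11* maximum was at +280 bp with 37 FLI1, 1 RUNX1 and 1 input reads.

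Starts of members often faced another gene. A gene start on the opposite strand lay within 1 kb for 31 members (33.7%), against 10.8% of all genes and 2019 of the 10654 with CpG-rich promoters. These 31 had 25 called and a median ratio of 4.14, whereas the other 61 had 38 called and a median of 2.24. CpG-rich promoters made up 29 of the 31 and 43 of the 61, CCGGAA was present at 16 and 22, and the part of either in the difference was not tested. Among CpG-rich members alone the medians were 4.17 with and 2.39 without such a start. Over all genes, 73.3% of those with an opposite-strand start and 30.3% of the others were called, and within CpG-rich promoters 78.4% and 56.0%. Examples at high ratios are *Ndufb5* with *Mrpl47* at 157 bp, *Sdhaf2* with *Cpsf7* at 35 bp and *Cox4i1* with *Cox4nb* at 178 bp. *Cox4nb* is itself a member by its name and had 278 FLI1, 12 RUNX1 and 11 input reads (8.09), mostly the same reads as *Cox4i1*. At *Ndufa11* with *Vmac* (63 bp) and *Ndufa5* with *Asb15* (131 bp) the ratios were 1.18 and 1.31. Reads at a shared start cannot be divided between its genes.

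CCGGAA, searched on both strands within 250 bp of the TSS, was found at 38 members (41.3%), at 24.3% of all genes and at 38.8% of CpG-rich promoters. Members with it had a median FLI1/input ratio of 4.11 with 35 of 38 called, and members without it 2.07 with 28 of 54. The same split over all genes gave medians of 2.80 and 1.16, with 3592 of 5444 (66.0%) and 4237 of 16923 called. It held also among the CpG-rich members alone, with 4.16 (33 of 36 called) and 2.30 (23 of 36 called), beside 3.27 (78.4% called) and 1.95 (48.7% called) for all CpG-rich promoters. Medians were 3.21 for the 20 members with 1 match, 3.74 for the 11 with 2 and 5.11 for the 7 with 3 or more. They were 2.39, 3.44 and 4.38 over all genes. For CpG-rich promoters, the class of 36 of these 38 members, they were 2.92, 3.72 and 4.54, so the members with 2 matches stood near their class. The 7 members with 3 or more were *Sdhaf2*, *Cox4i1*, *Cox4nb*, *Cox7a2*, *Cox8a*, *Uqcrq* and *Ndufs3*, and *Cox4i1* and *Cox4nb* share theirs.

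**Figure D4:**
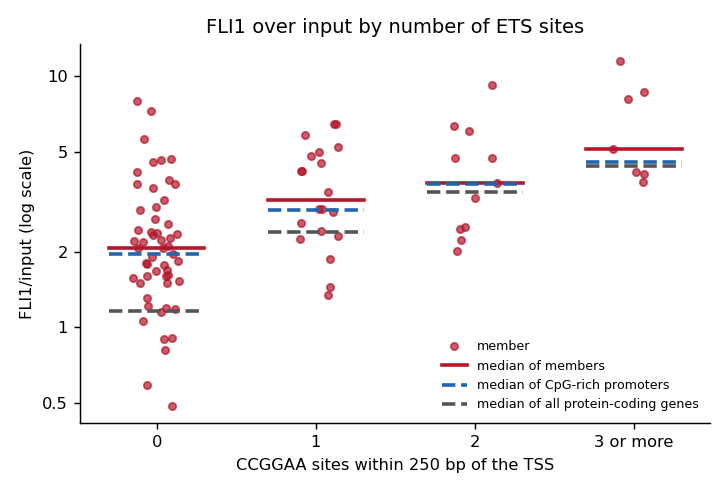
FLI1/input within 1 kb of the TSS (y axis, log scale) by the number of CCGGAA matches within 250 bp on either strand (x axis), with a point for each member, solid bars for the median of members and dashed bars for the medians of CpG-rich promoters and of all protein-coding genes. Member medians were 2.07, 3.21, 3.74 and 5.11 from 0 to 3 or more matches. Those of CpG-rich promoters were 1.95, 2.92, 3.72 and 4.54, and those of all genes 1.16, 2.39, 3.44 and 4.38.

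The motif also sat where the FLI1 reads were highest. In the 35 called members with CCGGAA, the nearest match lay a median of 20 bp from the FLI1 maximum and within 50 bp in 26 (74.3%), against 31 bp and 67.2% for all called genes with the motif. The members held 66 matches, with a median position of +4 bp from the TSS and 46 within 100 bp. The 3 members with CCGGAA that were not called were *Ndufc2* (110 FLI1, 10 RUNX1 and 28 input reads, 1.34), *Atp5sl* (1.45) and *Atp5k* (1.86). Conversely, *Ndufb5* and *Cox5a* were at 7.92 and 7.25 without a match within 250 bp of the TSS. *Ndufa13* (5.62) had none there either, but held CCGGAA 42 bp from its FLI1 maximum at +860 bp. A wider ETS pattern, GGAA with CC or CA before it and A or G after it, was found at 56.5% of members and 43.7% of all genes.

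Strings of other factors of this pathway were found at fewer members. The NRF-1 palindrome lay within 250 bp of 7 starts (7.61%), against 1.35% of all genes and 2.66% of CpG-rich promoters, namely those of *Atp5g2*, *Atp5k*, *Cox6a1*, *Ndufa11*, *Ndufaf4*, *Ndufs8* and *Uqcrc1*. Its shorter part GCATGCGC, which every palindrome contains, lay at 14 (15.2%), against 3.90% and 6.90%. The YY1 string AAGATGGC lay at 19 members (20.7%), against 5.12% and 7.37%. In 14 of these 19 the string overlapped the gene's annotated start codon. Of 19 matches 16 were on the gene's own strand, and the median position of all 19 was +36 bp. Median FLI1/input ratios with and without AAGATGGC were 2.20 and 2.59. The matches with the highest and the lowest FLI1/input ratio among complex subunits other than tissue-restricted isoforms are shown with the string in capitals (the restricted *Ndufa4l2*, at 0.897, also holds it), the former, at *Atp5h*, upstream of its start in *Kctd2*, and the latter at the coding start of *Ndufc1*.
Atp5h, chr11:115281468-115281497, minus strand: gctgcagctccGCCATCTTgggccgccgct
Ndufc1, chr3:51212837-51212866, minus strand: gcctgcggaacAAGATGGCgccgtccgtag

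The RUNX1 library gave 1 to 15 reads per member, so reads were summed. Over the 92 members 627 RUNX1 reads and 1945 input reads gave a depth-scaled ratio of 1.76 (95% interval 1.61 to 1.93), against 1.51 for all genes and 1.96 (1.95 to 1.98) for CpG-rich promoters. CpG-rich members stood at 1.97 (1.78 to 2.18), which includes the value of their class, and the other members at 1.10 (0.874 to 1.38), as did all genes without a CpG-rich promoter (1.10). RUNX1 at these promoters was thus not distinguishable at this depth from that at other promoters of the same CpG class. Keeping repeated input positions lowered the value for all genes to 1.06 and left that of members at 1.76. Of the 199921 reads that this added, 5 genes held 90.4%.

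By gene, 31 members (33.7%) reached 2-fold for RUNX1, beside 21.5% of all protein-coding genes and 36.1% of CpG-rich promoters. With 5 reads added in place of 1, 8 members (8.70%) did, beside 6.31% of all genes and 1269 of the 10654 CpG-rich promoters. The highest counts were 15 reads at *Ndufaf3* (229 FLI1 and 32 input reads) and *Atp5g2*, and 14 at *Uqcrq*, *Atp5l*, *Atp5b* and *Atp5s*. Complex V had a summed ratio of 2.24 (1.83 to 2.74) and complex I 1.65 (1.43 to 1.90). Their intervals overlapped slightly, and the difference was not tested. Restricted complex IV isoforms stood at 1.05 (0.707 to 1.51). Members with CCGGAA stood at 2.03 (1.76 to 2.34) and those without at 1.60 (1.41 to 1.80), but among CpG-rich members alone the values were 2.04 (1.77 to 2.36) and 1.90 (1.65 to 2.19). In the 200 bp window with most FLI1 reads, RUNX1/input was 2.80 (2.20 to 3.55) for members, 3.18 (2.44 to 4.12) for CpG-rich members, 2.43 for all genes and 3.59 for CpG-rich promoters. The RUNX strings TGTGGT and TGCGGT lay within 250 bp of 21 members (22.8%) and 12 members, and of 23.5% and 13.3% of all genes.

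**Figure D5:**
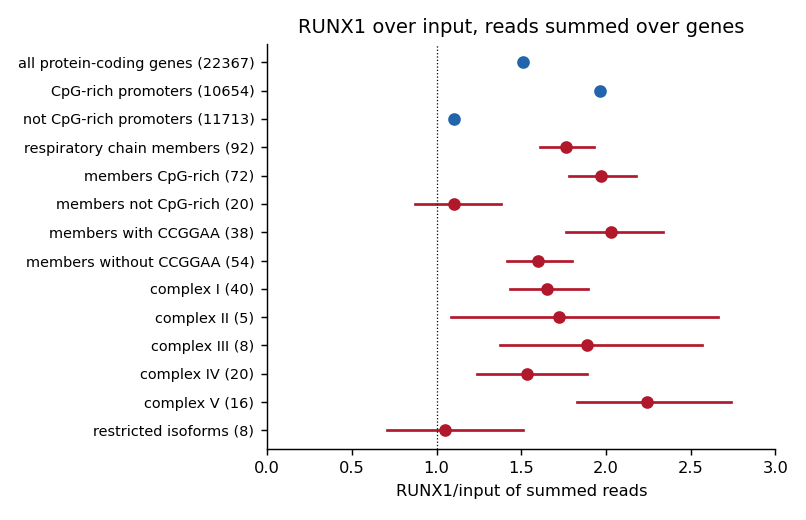
RUNX1/input of depth-scaled reads summed over the genes of each group (x axis), with exact 95% counting intervals as bars and the number of genes in parentheses. Red marks groups of members and blue all protein-coding genes by CpG class, with the CpG-rich members (1.97) beside all CpG-rich promoters (1.96).

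Depth differed between the ChIP libraries. With FLI1 thinned to the RUNX1 depth, 50 of 92 members and 31.3% of all genes reached 2-fold, against 31 and 21.5% for RUNX1. Input by itself was slightly higher at members, with a median of 0.483 RPKM against 0.437 for all genes and 0.391 in the genome's 2 kb bins. It ranged from 6 reads (*Ndufa1*) and 8 (*Ndufb11* and *Sdhaf2*) to 35 (*Cox8b*), 36 (*Ndufs7*) and 38 (*Atp5g1*). High ratios at *Sdhaf2*, *Ndufa1* and *Cox4i1* came with low input counts, and *Cox8b* had both few FLI1 and many input reads. Near the start the mean input of CpG-rich promoters was lower than that of members, at 0.305 and 0.475 RPKM around +50 bp and 0.287 and 0.390 around +250 bp. If the input was cut with micrococcal nuclease, as the methods have it and the labels do not, each ratio sets sonicated against nuclease-cut chromatin. The part of input in these ratios was not tested. *Ndufs7* had 274 FLI1 and 8 RUNX1 reads, and *Ndufb11* 90 and 4.

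Other genes of the pathway were counted from a list of 54 names, of which 47 were found. FLI1 was called at 31 of them (66.0%), with a median ratio of 3.18, beside 35.0% of all genes and 60.3% of CpG-rich promoters, a class to which 40 of the 47 belong. Among the regulators of respiratory chain genes, *Yy1* stood at 10.3 with 176 FLI1, 4 RUNX1 and 5 input reads. Its ratio thus rested on few input reads, and its FLI1 maximum lay at -730 bp. The mitochondrial transcription factor *Tfam* stood at 8.63 (272, 4 and 10). All 3 GABP genes were called, *Gabpb2* at 8.41 (484, 18 and 19), *Gabpa* at 7.06 (406, 11 and 19) and *Gabpb1* at 5.40 (247, 17 and 15). The *Gabpa* window overlaps that of *Atp5j*, and the *Gabpb1* maximum lay at +750 bp. *Nrf1* was called at 3.75 (73, 6 and 6), with an FLI1 count near the all-gene median of 70 and few input reads. The coactivators *Ppargc1a* and *Ppargc1b* stood at 1.40 and 1.51, and the related *Pprc1* was called at 6.84 (195, 4 and 9). Somatic cytochrome c (*Cycs*) stood at 1.89 (194, 9 and 35) and its testis form *Cyct* at 0.862 (47, 4 and 19), so that FLI1 counts again were higher at the ubiquitous form. The copper chaperones of complex IV differed, with *Sco1* at 4.14 and *Sco2* at 0.448.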

How the data were processed

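Chromatin of cultured megakaryocytes was sequenced in 3 libraries. The authors aligned reads to mm9, and the deposited files hold the chromosome, start, end and strand of each read. Their notes name Bowtie, SICER 1.1 and MACS 1.4. The labels describe sonication for all libraries, and the methods micrococcal nuclease for input controls. ChIP reads are 50 bp and non-redundant. Input reads are 34 bp, and the 3.24% at repeated positions were reduced to 1 per position and strand. Reads on chromosome M were left out. Of 20000 reads with bases in each ChIP file, 96.5% (FLI1) and 96.6% (RUNX1) matched the mm9 sequence used here with at most 2 mismatches.

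Read ends were shifted by 75 bp in the 3′ direction and counted within 1 kb of the 5′ end of each GENCODE M1 gene record. ChIP/input ratios were scaled to the reads used, with 1 read of the shallower library added on both sides. Intervals are exact (Clopper-Pearson for ratios, Poisson for counts, 95%), without the added read, and cover counting error only. With 1 library per antibody there was no test and no p-value. Counting was tested on simulated reads with known folds. Python 3.11.15, numpy 2.4.6, scipy 1.17.1, pandas 2.3.3 and matplotlib 3.10.9 were used.

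Members, gene lists and comparisons were chosen with earlier results of these data known. Genes named were the 3 highest and 2 lowest ratios of each complex, isoform pairs, *Atp5g* genes, *Cox4nb* and the extremes of RUNX1 and input counts. Further names (*Ndufa13*, *Atp5f1*, *Ndufa5*, *Ndufs1*, *Ndufs8*, *Ndufv1*, *Ndufv2*, *Ndufaf1*, *Ndufaf4*, *Atp5sl*, *Atp5k*, *Uqcrc2*, *Atp5j2*, *Cox6c* and other examples) were chosen after their values were seen. Alternatives varied the window, start, shift, depth, added reads, threshold and background. FLI1 was thinned by a single random draw of its reads. Other libraries of the study, which measured NF-E2, H3K4me2 and RNA, were not analysed here.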

Additional observations from a re-analysis of the deposited data

How the results depend on the processing

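No paired analysis was possible because each antibody has 1 library. Of 195 summary values under the alternatives, 138 stayed within a set limit and 57 moved past it. The limit was a 1.5-fold change for counts of genes called, and the interval of the main value for all others. Of 396 values for 44 named genes, 34 moved. Named genes were not scored at other thresholds, so calls that end at 3-fold or begin at 1.5-fold are left out of the next counts. Of the 31 named genes called, 11 lost the call under at least 1 alternative and 0 fell below 1 (lowest value 1.11), 3 others gained a call, and 7 uncalled genes crossed 1, among them *Atp5d* (0.717 with 500 bp) and *Cox6a2* (1.63 with thinned FLI1). With 500 bp on each side, the median FLI1 ratio was 3.57 (6.27 with and 2.66 without CCGGAA), 41.6% of all genes were called, and summed RUNX1 ratios were 2.12 for members and 1.82 for all genes. With 2 kb, 39 members were called (complex I 17, II 3, III 4, V 6, restricted isoforms 0) and 24.0% of all genes, with medians of 1.83 (2.31 with and 1.52 without CCGGAA), 15 members (12.5% of all genes) called for RUNX1 and RUNX1 ratios of 1.43 and 1.28. At 3-fold, 37 members (complex I 17, II 3, III 3, IV 7, V 6, restricted isoforms 0), 20.4% of all genes and, for RUNX1, 5 members (6.86% of all genes) were called, and at 1.5-fold 46.3% of all genes and, for RUNX1, 52 members (37.4% of all genes). With 5 reads added, 30.7% of all genes, 0 restricted isoforms and, for RUNX1, 8 members (6.31% of all genes) were called. Thinned FLI1 gave a median of 2.22, 31.3% of all genes, 3 in complex III and 1 restricted isoform. The share of all genes called was 36.3% without genes of under 5 input reads, 37.7% by the FLI1 level alone, 38.5% of genes with more than 1 exon and 60.3% of CpG-rich promoters. The RUNX1 ratio of all genes was 1.06 with repeated input positions, 1.52 with depth taken over 5 kb from starts, 1.56 for genes with more than 1 exon and 1.96 for CpG-rich promoters. Without members facing an opposite-strand start within 1 kb, 38 of the remaining 61 members (62.3%) were called, beside 30.3% of all genes without such a start. The FLI1 maximum lay within 100 bp of the TSS in 77.8% of called members and 48.8% of all called genes, within 500 bp in 85.3% of all called genes, and, with a 100 bp window, within 250 bp in 68.7%. CCGGAA lay within 100 bp of 14.8% of all genes and within 500 bp of 55.4% of members and 33.7% of all genes. CCGGAAG lay within 250 bp of 27.2% and 14.4%, and the wider pattern of 56.5% and 43.7%. Leaving out the second *Ndufb8* record, or also *Cox4nb* and *Atp5sl*, was added after seeing the data and gave 63 and 62 members called. The limits are the single library of each antibody, the RUNX1 depth and input counts as low as 6. The causes of these shifts were not tested.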
